A study of Mus musculus with 4 samples.

Results

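Glutathione S-transferases (GSTs) were described in Hepa1-6 cells, an established mouse hepatocellular carcinoma line, with and without knockdown of Setdb1, a histone lysine methyltransferase that keeps chromatin silent. The members are 10 genes taken by symbol from the deposited gene tables: Gstp1, Gstp2 and Gstp3 of the pi class, Gsta2, Gsta3 and Gsta4 of the alpha class, Gstm1, Gstm2 and Gstm3 of the mu class, and Gstt1 of the theta class. They are 10 of 54838 Ensembl genes in the tables. The knockdown group, shSet, is 2 libraries of Hepa1-6 cells carrying an shRNA against Setdb1, with the genotype Setdb1 knockdown. The control group, shNC, is 2 libraries of Hepa1-6 cells carrying the NC shRNA, with the genotype Setdb1 wild type. The series' design text speaks of subclones, and the labels do not say whether the 2 libraries of a group came from separate subclones or cultures. The p-values therefore reflect library-to-library spread alone, which may be technical.

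GSTs join glutathione to reactive, fat-soluble compounds, which makes them more soluble and lets transporters carry them out of the cell. The cytosolic enzymes work as pairs of subunits, and the classes differ in the compounds they favour. In liver they clear drugs, carcinogens and products of lipid peroxidation, and several are targets of the oxidative stress regulator NRF2.

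Gstp1 and Gstp2 lie side by side on chromosome 19 and are nearly the same in sequence, which bears on every count given for them. Their coding sequences (GENCODE M21, GRCm38) are 98.1% identical, with 12 differences in 630 bases and an identical run of 300 bases. The first 60 coding bases of each are shown because they hold 6 of the 12 differences, in capitals.
Gstp1: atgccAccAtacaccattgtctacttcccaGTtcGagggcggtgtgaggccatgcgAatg
Gstp2: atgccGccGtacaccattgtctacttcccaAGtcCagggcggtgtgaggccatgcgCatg
Of all 50-base stretches in the Gstp2 transcripts, 64.3% also occurred in Gstp1 transcripts, and 62.3% of those of Gstp1 occurred in Gstp2. At 100 bases these shares were 54.6% and 52.8%. Counting stretches found in any other gene, the Gstp2 shares were 72.6% at 50 bases and 63.5% at 100 bases. The read length is not given in the sources used here. RSEM, the counting program, divides reads that fit both genes by an estimate, and both genes had fractional expected counts in 4 of 4 libraries. Gstp3 is more distant, with 72.7% coding identity to Gstp2, and shared no stretch of 50 bases with another gene.

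The windows upstream of Gstp1 and Gstp2 were also alike. Over the 250 bases before the RefSeq start (RefSeq, GRCm38.p6), aligned Gstp1 and Gstp2 were 78.1% identical, while the identity to Gstp3 was 39.5% for Gstp1 and 41.9% for Gstp2. Some RefSeq starts differ from those of GENCODE M21. The Gstp2, Gsta2 and Gstt1 windows lie within the GENCODE gene spans. The Gstp1, Gstp3, Gstm2 and Gstm3 windows and 1 of the 2 Gstm1 windows overlap their spans in part. The stretches below hold the letters TGAGTCA, in capitals, a site type bound by AP-1 factors. This motif was searched after the sequences had been seen.
Gstp1, chr19:4037978-4038046, minus strand: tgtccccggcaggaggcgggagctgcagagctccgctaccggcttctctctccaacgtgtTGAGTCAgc
Gstp2, chr19:4042302-4042370, minus strand: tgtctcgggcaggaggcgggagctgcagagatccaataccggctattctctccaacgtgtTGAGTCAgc
The first base of TGAGTCA lies 74 bases before the Gstp1 start and 89 bases before the Gstp2 start. Searched on both strands of these 250 bases, it was in 2 of the 9 members with a promoter entry, against 4.46% of 32851 promoters. TGACNNNGC, a strict form of the core of the antioxidant response element through which NRF2 acts, was in 1 of 9, Gsta3, against 10.2% of promoters. Looser forms that allow TGAG in place of TGAC, as in the stretches above, were not counted. GCGTG, the core of the Ah receptor element, was in 4 of 9, Gstp1, Gstp3, Gsta2 and Gstm1, against 28.2% of promoters. A match of letters is a description and shows no binding.

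Setdb1, the targeted gene, had 215 and 168 expected counts in shSet libraries, against 1003 and 1160 in shNC libraries. It fell to 17.9% of the shNC level in shSet libraries (95% interval 13.4 to 23.7%; adjusted p = 0.0001495, edgeR's quasi-likelihood test with Benjamini-Hochberg adjustment over 12821 tested genes). The libraries held 19615440 and 19569013 expected counts in shSet, against 19600142 and 19513567 in shNC. Of 9 hepatocyte markers 6 averaged at least 1 CPM over the 4 libraries (CPM is the count scaled to library size with TMM factors), among them Alb and Afp, while Ttr, Apoa1 and Serpina1a did not. The summed marker levels were 5080 and 4630 CPM in shSet libraries, against 4250 and 4440 CPM in shNC libraries. Within this list Alb was called higher (1.92-fold, adjusted p = 0.005634, edgeR) and Hnf4a lower (0.662-fold, adjusted p = 0.03017, edgeR). Of 4 cholangiocyte markers 3 averaged 1 CPM or more, all but Krt19, with sums of 80.8 and 86 CPM in shSet libraries, against 79.3 and 76.4 CPM in shNC libraries. Members of that list went different ways: Epcam was called higher (2.09-fold, adjusted p = 0.009193, edgeR), while Krt7 (1.74-fold) and Sox9 (0.774-fold) were not called. Fibroblast or stellate markers, of which 2 of 5 averaged 1 CPM or more and Acta2 was at 0 counts, summed to 4.95 and 5.31 CPM in shSet libraries, against 1.59 and 1.87 CPM in shNC libraries, with Col1a1 called higher (4.49-fold, adjusted p = 0.006523, edgeR). Of 4 endothelial markers Pecam1 had 1.99 and 1.03 CPM in shSet libraries, against 0.462 and 0.353 CPM in shNC libraries, and was not called, while Cdh5, Kdr and Tek were near 0. The endothelial sums were 2.14 and 1.08 CPM in shSet libraries, against 0.513 and 0.404 CPM in shNC libraries. Of 4 leukocyte or macrophage markers Cd68 (1.75-fold) and Lyz2 (0.302-fold) went opposite ways and were not called. The sums of these 4 were 12.2 and 10.5 CPM in shSet libraries, against 7.59 and 7.06 CPM in shNC libraries. The part of these marker shifts in the GST results was not tested. In bulk libraries of a cell line, a change in the share of cells that express a gene and a change in its RNA per cell cannot be told apart.

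After Setdb1 knockdown, Gstp2 and Gstt1 rose and Gsta4 fell. These were 3 of the 7 members with enough reads to test, and Gstp1, Gstm1, Gstm2 and Gsta3 did not pass the test. Gstp3, Gsta2 and Gstm3 had too few reads and were not tested. Over all 12821 tested genes, 4.20% were called higher and 1.76% lower at an adjusted p of 0.05 (edgeR), against 2 and 1 of the 7 tested members. The libraries of the groups did not overlap for 6 of the 7 tested members, all but Gsta3, against 51.6% of all tested genes. The median log2 fold change was 0.46 over the 7 tested members and -0.0052 over all tested genes. The former is the value of Gstm2, which was not called. Without the filter on low counts edgeR called 0 of 21511 genes, these 3 included, although 3379 had an unadjusted p under 0.05. The log2 fold changes of Gstp2, Gstt1 and Gsta4 were then 3.27, 2.10 and -1.30.

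**Figure D1:**
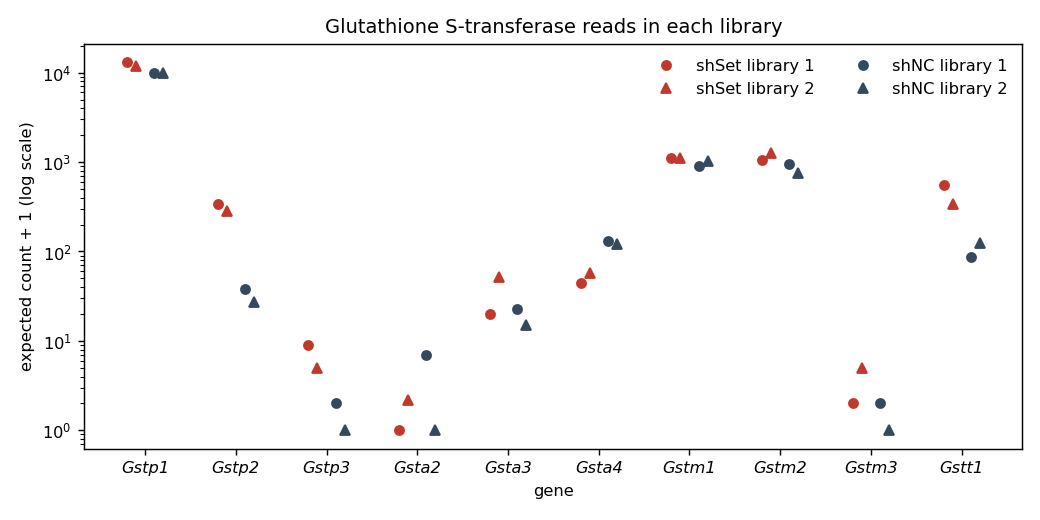
Expected counts plus 1 of each GST gene (log scale), with shSet libraries left of shNC libraries and a symbol for each library. Gstp2 and Gstt1 lie higher in both shSet libraries, Gsta4 lies lower, and Gstp3, Gsta2 and Gstm3 stay at 8 counts or fewer.

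In both groups pi-class transcripts were the bulk of the RNA of the listed members, nearly all of it Gstp1. Gstp1, the major pi-class enzyme, which also binds stress kinases, is at chr19:4035407-4037985 on the minus strand (GENCODE M21). Its level was 1649 and 1503 TPM (a level per transcript length) in shSet libraries, against 1278 and 1273 TPM in shNC libraries. That was 86.7% and 85.8% of the members' summed TPM in shSet libraries, against 88.9% and 89.2% in shNC libraries. These shares leave out GST genes that are not members. The most abundant of those, Gsto1, averaged 545 TPM in shSet libraries and 482 TPM in shNC libraries. Gstp1 had 13008 and 11858 expected counts in shSet libraries, against 9862 and 9896 in shNC libraries. Both shSet libraries were above both shNC libraries, but the difference did not pass the test: the fold was 1.27 (95% interval 1.03 to 1.56; unadjusted p = 0.02727, adjusted p = 0.1689, edgeR).

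Gstp2, the near-copy of Gstp1 at chr19:4040285-4046023 on the minus strand, had 338 and 282 expected counts in shSet libraries, against 36.9 and 26.6 in shNC libraries. The 2 groups were far apart against the spread within each, at 17.2 and 14.5 CPM in shSet libraries, against 1.9 and 1.36 CPM in shNC libraries. Gstp2 rose 9.72-fold (95% interval 6.49 to 14.6; log2 fold change 3.28, SE 0.26; adjusted p = 0.0001877, edgeR), the smallest adjusted p among the members. Its level averaged 38.2 ± 4.9 TPM in shSet libraries and 3.99 ± 0.933 TPM in shNC libraries (SD, n = 2 each). With each library left out in turn, its log2 fold change lay between 3.06 and 3.54.

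Gstp2 was a small share of the pair in both groups. It took 2.53% of the summed Gstp1 and Gstp2 counts in shSet library 1 (95% Wilson interval 2.28 to 2.81%) and 2.32% in shSet library 2 (2.07 to 2.6%). In shNC libraries its share was 0.372% (0.27 to 0.513%) and 0.268% (0.183 to 0.39%). Gstp1 had 38.5 and 42.1 counts for each Gstp2 count in shSet libraries, against 268 and 373 in shNC libraries. These intervals cover counting error only, and not the division of shared reads. Summed over Gstp1, Gstp2 and Gstp3, which does not depend on how reads were divided among them, the pi cluster had 13354 and 12143 counts in shSet libraries, against 9900 and 9922 in shNC libraries. That fold of 1.30 did not pass the test (log2 fold change 0.37, SE 0.13; adjusted p = 0.1367, edgeR).

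**Figure D2:**
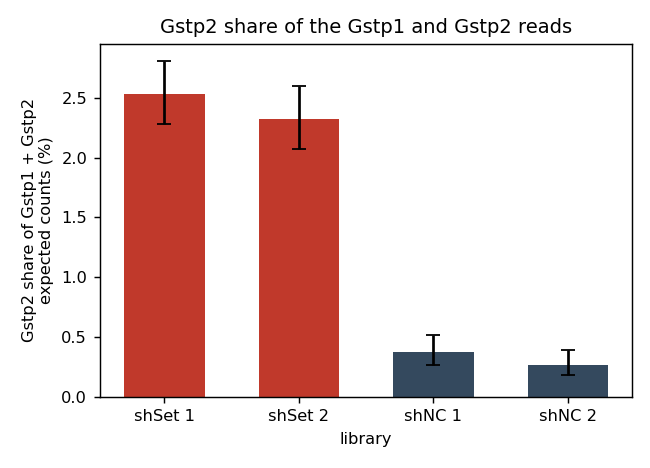
Share of Gstp2 in the summed expected counts of Gstp1 and Gstp2 in each library (%), with 95% Wilson intervals for counting error. The shSet libraries, on the left, lie at 2.53% and 2.32%, and the shNC libraries at 0.372% and 0.268%.

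A pi-class pseudogene, Gstp-ps, carries further shared sequence, with 71.1% of its 50-base stretches found in Gstp2 transcripts. The intervals given for Gstp2 do not cover the division of reads between Gstp2 and Gstp-ps. With Gstp-ps added, the pi cluster sum had a log2 fold change of 0.38 and did not pass the test (adjusted p = 0.1348, edgeR). Gstp-ps alone had 93.8 and 73.6 expected counts in shSet libraries, against 43.4 and 38.6 in shNC libraries, fractional in 4 of 4 libraries. Its log2 fold change of 1.04 (SE 0.28) did not pass the test (adjusted p = 0.05871, edgeR). Gstp-ps is no member and was looked at after its values were seen. Gstp3, the third gene of the cluster at chr19:4057477-4059569 on the minus strand, had 8 and 4 counts in shSet libraries, against 1 and 0 in shNC libraries. The ratio of its summed counts was 12 (95% counting interval 1.77 to 512), with no test between groups.

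The alpha class was low and its best-covered member fell. Gsta4, which conjugates 4-hydroxynonenal and other aldehydes of lipid peroxidation, is at chr9:78182774-78209349 on the plus strand. It had 44 and 57 counts in shSet libraries, against 129 and 120 in shNC libraries, with no overlap. Its level averaged 2.59 ± 0.492 CPM in shSet libraries and 6.34 ± 0.4 CPM in shNC libraries (SD, n = 2 each). Gsta4 fell to 0.41 of the shNC level (95% interval 0.275 to 0.61; log2 fold change -1.29, SE 0.26; adjusted p = 0.0186, edgeR). Without shSet library 1 its log2 fold change was -1.11 and the call was lost (adjusted p = 0.06707).

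Gsta3, known in mice for detoxifying the aflatoxin epoxide, is at chr1:21240589-21265661 on the plus strand. It had 19 and 51 counts in shSet libraries, against 22 and 14 in shNC libraries, so shSet library 2 alone was high and the groups overlapped. Its log2 fold change was 0.97 (95% interval -0.18 to 2.11; adjusted p = 0.3127, edgeR). It became 1.51 without shSet library 1 (adjusted p = 0.03501, edgeR), with only the high library left in the knockdown group, and 0.08 without shSet library 2 (adjusted p = 0.9814, edgeR). Gsta2, an inducible liver alpha-class gene at chr9:78331018-78355788 on the minus strand, had 0 and 1.19 counts in shSet libraries, against 5.99 and 0 in shNC libraries. Its counts were fractional in 2 libraries, and 36% of its 50-base stretches also occurred in Gsta1. Gsta2 and Gsta4 together had 44 and 58.2 counts in shSet libraries, against 135 and 120 in shNC libraries (log2 fold change -1.31, SE 0.26; adjusted p = 0.01846, edgeR). Nearly all of these counts were those of Gsta4, which shared no 50-base stretch with another gene, so the sum restates the Gsta4 result. Without shSet library 1 the log2 fold change of the sum was -1.12, and its call was lost as well.

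Of the mu class, Gstm1 and Gstm2 were well covered and neither passed the test. Gstm1, an abundant mu-class enzyme of liver, is at chr3:108012255-108017973 on the minus strand. It had 1105 and 1096 counts in shSet libraries, against 912 and 1037 in shNC libraries. Both shSet libraries were above both shNC libraries, by little, with a log2 fold change of 0.19 (95% interval -0.13 to 0.51; adjusted p = 0.4919, edgeR). Gstm2, its mu-class neighbour at chr3:107981702-107986453 on the minus strand, had 1058 and 1252 counts in shSet libraries, against 938 and 757 in shNC libraries. The groups were separated, with a log2 fold change of 0.46 (95% interval 0.08 to 0.83; adjusted p = 0.1523, edgeR). Without shNC library 1 it was 0.63 and passed the test (adjusted p = 0.03115).

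Gstm3, the third mu-class member at chr3:107963696-107969283 on the minus strand, had 1 and 4 counts in shSet libraries, against 1 and 0 in shNC libraries. Its coding sequence was 84.7% identical to that of Gstm2, and 28.8% of its 50-base stretches occurred in other genes. Summed, the 3 mu members had 2164 and 2352 counts in shSet libraries, against 1851 and 1794 in shNC libraries. This fold of 1.25 did not pass the test (log2 fold change 0.32, SE 0.13; adjusted p = 0.1996, edgeR).

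Gstt1 rose, with the larger spread of the 2 increases. Gstt1, a theta-class enzyme that acts on small halogenated compounds such as dichloromethane, is at chr10:75783813-75798584 on the minus strand and shared no 50-base stretch with another gene. It had 548 and 338 counts in shSet libraries, against 85 and 122 in shNC libraries. The lower shSet library was above the higher shNC library, and the shSet libraries differed from each other more than the shNC libraries did. Gstt1 rose 4.31-fold (95% interval 2.80 to 6.63; log2 fold change 2.11, SE 0.28; adjusted p = 0.002666, edgeR). With each library left out in turn, its log2 fold change lay between 1.73 and 2.41.

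**Figure D3:**
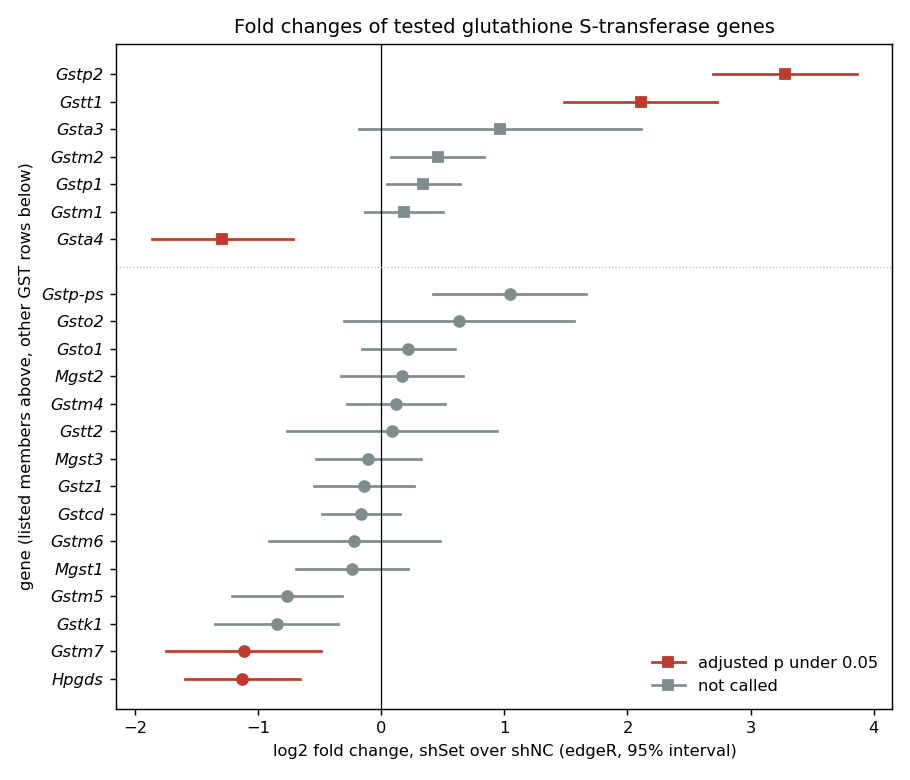
Log2 fold changes, shSet over shNC, of the tested GST genes with 95% intervals from edgeR, with the listed members above and other GST genes below, in colour where the adjusted p is under 0.05. Gstp2 and Gstt1 lie right of 0, and Gsta4, Hpgds and Gstm7 lie left of it.

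By mean TPM the order in shNC libraries was Gstp1, Gstm2, Gstm1, Gsta4, Gstt1, Gstp2, Gsta3, Gsta2, Gstp3 and Gstm3. Gstm2 and Gstm1 could not be ordered there, because Gstm1 was above Gstm2 in shNC library 2, at 67.3 and 61.1 TPM, and below it in shNC library 1. Gsta2, Gstp3 and Gstm3 had 5.99, 1 and 1 counts in shNC library 1 and 0 each in shNC library 2. They could not be ordered either. In shSet libraries Gstp1, Gstm2 and Gstm1 also led, and Gstp2 ranked 4, at 38.2 TPM, followed by Gstt1 at 36.2 TPM and Gsta4 at 4.43 TPM. The levels of Gstp2 and Gstt1 in shSet libraries could not be ordered, because Gstp2 had 41.7 and 34.8 TPM and Gstt1 had 44.2 and 28.1 TPM in these 2 libraries. Gstm2 averaged 90.5 TPM in shSet libraries and 68.2 TPM in shNC libraries, and Gstm1 averaged 78 TPM in shSet libraries and 62.5 TPM in shNC libraries. The summed level of the 10 members was 1902 and 1751 TPM in shSet libraries, against 1437 and 1427 TPM in shNC libraries.

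Other GST genes were not called higher. Of 21 further symbols in a list that leaves out pseudogenes such as Gstp-ps, 19 were in the tables and 14 were tested. Of these 2 fell, while 0 rose, against 1.76% called lower and 4.20% higher over all tested genes (edgeR). At an unadjusted p under 0.05, 0 of the 14 were higher and 4 lower, and DESeq2 called 0 higher and 2 lower. The 2 called by DESeq2 were not the same 2, as they included Hpgds but not Gstm7. Gstm5 (0.589-fold, adjusted p = 0.05501, edgeR) and Gstk1 (0.555-fold, adjusted p = 0.05645, edgeR), chosen after their values were seen, lay just outside the threshold. The median over the 14 was -0.15 on the log2 scale, and 5 lay above 0. Hpgds, the sigma-class enzyme that makes prostaglandin D, had 179 and 240 counts in shSet libraries, against 501 and 421 in shNC libraries. Its log2 fold change was -1.13 (SE 0.21; adjusted p = 0.01328, edgeR), and limma on log2(TPM + 1) did not call it (adjusted p = 0.07924). Gstm7, a further mu-class gene, had 51 and 40 counts in shSet libraries, against 85 and 114 in shNC libraries. Its log2 fold change of -1.11 (SE 0.28) was at the edge of the threshold (adjusted p = 0.049, edgeR), and it lost its call in 7 of 13 alternatives, among them DESeq2 (adjusted p = 0.08334), leaving out shSet library 2 (adjusted p = 0.2139) and leaving out shNC library 2 (adjusted p = 0.09727).

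Few genes that make, recycle or carry glutathione passed the test, as was so over all tested genes (4.20% called higher and 1.76% lower, edgeR). Of 15 tested genes of glutathione synthesis and recycling 1 rose, with a median log2 fold change of 0.11. It was Slc1a4, a transporter of alanine, serine and cysteine, at 148 ± 3.84 CPM in shSet libraries and 83.7 ± 0.187 CPM in shNC libraries (SD, n = 2 each; adjusted p = 0.006172, edgeR). Of these 15 genes 0 fell (0 with an unadjusted p under 0.05 in that direction, 0 by DESeq2). Of 13 tested genes of the mercapturate pathway and conjugate export, which process GST products further, edgeR called 0. Unadjusted, 2 were higher and 2 lower at p under 0.05, and DESeq2 called 0. The median log2 fold change of these 13 genes was -0.18.

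Targets of NRF2 outside the GST family moved in both directions: of 24 tested, 4 rose and 2 fell, with a median log2 fold change of -0.04. Over all tested genes 4.20% were called higher and 1.76% lower (edgeR). The lists overlap. Gclc, Gclm, Gsr, Slc7a11, Txnrd1, G6pdx and Pgd are also in the list of glutathione synthesis and recycling, and Abcc1 is also in that of conjugate export. Gpx2, a glutathione peroxidase, had 161 and 233 counts in shSet libraries, against 1 and 0 in shNC libraries, a ratio of summed counts of 393 (95% counting interval 70.2 to 15600; adjusted p = 8.102e-05, edgeR). Ephx1, microsomal epoxide hydrolase, averaged 188 ± 2.91 CPM in shSet libraries and 64.4 ± 13.7 CPM in shNC libraries (SD, n = 2 each; log2 fold change 1.54, SE 0.16; adjusted p = 0.000886, edgeR). Nqo1, a quinone reductase often used as a readout of NRF2, had 204 and 311 counts in shSet libraries, against 103 and 40 in shNC libraries (log2 fold change 1.86, SE 0.38; adjusted p = 0.02105, edgeR). It was not called by limma on log2(TPM + 1), where its adjusted p was 0.07554. The log2 fold change of Nqo1 was 2.71 without shNC library 1 and 1.32 without shNC library 2. Fth1, the ferritin heavy chain, chosen after its values were seen, was the other gene that rose, with a log2 fold change of 0.59 (adjusted p = 0.03712, edgeR), and lost its call in 6 alternatives, among them leaving out shSet library 1 (adjusted p = 0.07817) and shSet library 2 (adjusted p = 0.1186).

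Osgin1, an oxidative stress response gene, fell, at 32.4 ± 4.64 CPM in shSet libraries and 67.9 ± 11.5 CPM in shNC libraries (SD, n = 2 each; adjusted p = 0.00765, edgeR). Taldo1, transaldolase of the pentose phosphate pathway, also fell, at 184 ± 7.53 CPM in shSet libraries and 272 ± 0.703 CPM in shNC libraries (SD, n = 2 each; adjusted p = 0.03066, edgeR). Without shSet library 2 its adjusted p was 0.1121.

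Of 15 tested transcription regulators of GST genes 2 fell and 0 rose (2 with an unadjusted p under 0.05 in that direction, 0 by DESeq2), with a median log2 fold change of -0.14. Over all tested genes 1.76% were called lower and 4.20% higher (edgeR). Hnf4a, a liver transcription factor, averaged 154 ± 13.5 CPM in shSet libraries and 232 ± 2.04 CPM in shNC libraries (SD, n = 2 each; log2 fold change -0.60, SE 0.13; adjusted p = 0.03017, edgeR). Without shSet library 2 its adjusted p was 0.1347. Cebpb, a bZIP factor of liver, had a log2 fold change of -0.68 (SE 0.17; adjusted p = 0.04505, edgeR) and lost its call in 5 alternatives, among them leaving out shSet library 2 (adjusted p = 0.1616) and shNC library 2 (adjusted p = 0.09311). Nfe2l2, which encodes NRF2, averaged 150 ± 2.51 CPM in shSet libraries and 119 ± 10.3 CPM in shNC libraries and did not pass the test (SD, n = 2 each; log2 fold change 0.32, adjusted p = 0.1955, edgeR). Keap1, the inhibitor of NRF2, averaged 51.1 ± 4.5 CPM in shSet libraries and 48.2 ± 2.99 CPM in shNC libraries (SD, n = 2 each; adjusted p = 0.7954, edgeR). Ahr, the aryl hydrocarbon receptor, averaged 73.8 ± 6.59 CPM in shSet libraries and 99.3 ± 20.5 CPM in shNC libraries (SD, n = 2 each; adjusted p = 0.1775, edgeR).

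**Figure D4:**
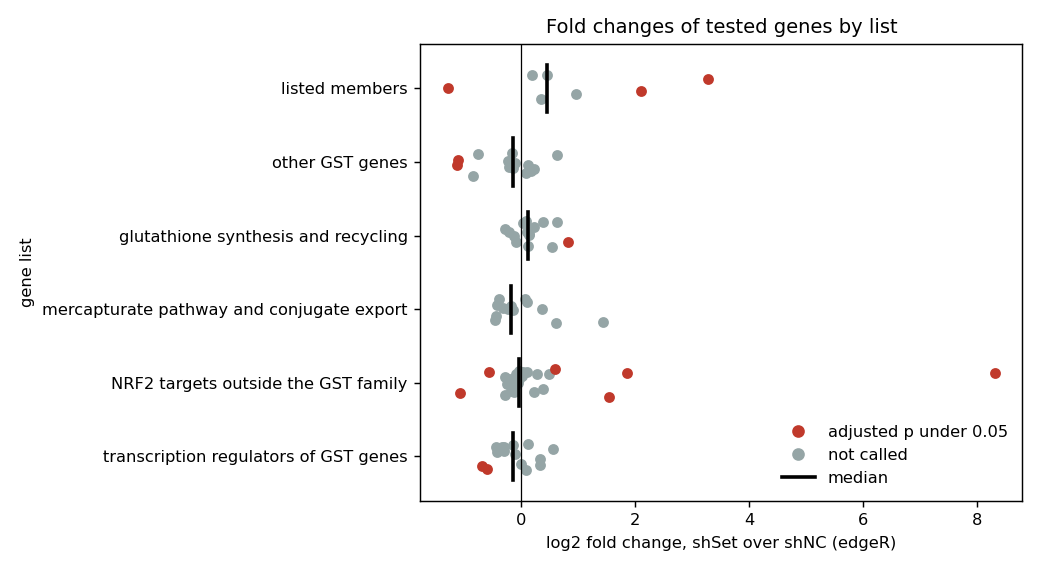
Log2 fold changes, shSet over shNC (edgeR), of the tested genes in each list, with a point per gene, colour for an adjusted p under 0.05 and a bar at the median. The medians of the other lists lie between -0.18 and 0.11, and that of the GST members at 0.46, the value of Gstm2, which was not called. Some genes are in more than 1 list. The members and lists were chosen with earlier results of these data known, and the medians were not tested against each other.

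The genes beside the members mostly did not pass the test. Of 30 nearest tested genes outside the family, 2 rose and 28 were not called, against 4.20% called higher and 1.76% lower over all tested genes (edgeR). The 6 genes around the pi cluster had log2 fold changes between -0.40 and 0.05 and did not pass the test, while Gstp2 inside it rose 9.72-fold. Susd2, a membrane protein gene 140 kb from Gstt1, had 36 and 33 counts in shSet libraries, against 9 and 12 in shNC libraries (log2 fold change 1.72, SE 0.39; adjusted p = 0.03325, edgeR). It was not called without shSet library 1 (adjusted p = 0.05089) or by DESeq2 (adjusted p = 0.1357). Khdc1a, 84 kb from Gsta3, had 34.3 and 46.8 counts in shSet libraries, against 0 and 0 in shNC libraries, at least 27-fold higher against a floor of 3 counts over the group (adjusted p = 0.002387, edgeR). Its counts were fractional, so some reads were divided with other genes. Khdc1c, 103 kb from Gsta3, had 10.7 and 11.2 counts in shSet libraries, against 0 and 3 in shNC libraries. It was not called (adjusted p = 0.09018, edgeR). The tables also list loci named by position, and 9 of them lie within 50 kb of a member, each with 0 counts in all 4 libraries.

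Profiles were log2 CPM with a prior count of 2, minus the shNC mean, over the 4 libraries. The search covered tested protein-coding genes outside the GST family. By Euclidean distance, those most like Gstp2 were Hspa1b (distance 0.0981), Atp2b2 (0.123), Nfatc4 (0.165), Igf2 (0.246) and A530064D06Rik (0.37). Igf2, a fetal growth factor gene, had 593 and 437 expected counts in shSet libraries, against 55.3 and 49.7 in shNC libraries. Nfatc4, an NFAT transcription factor gene, had 190 and 174 counts in shSet libraries, against 23 and 16 in shNC libraries. Hspa1b and Atp2b2 are close by this measure although they had only 42 and 40 counts in both shSet libraries together and 1 each in both shNC libraries together. The prior count shrinks the differences of such low genes. Their edgeR folds were 34.0 and 32.4, against 9.72 for Gstp2.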

How the data were processed

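RNA was sequenced from 4 libraries, 2 shSet and 2 shNC, grouped by their titles. Per the labels' protocols, a directional NEBNext Ultra kit was used. The submitters' processing notes list GRCm38, mm10, FastQC, STAR, RSEM and DESeq2, without versions or roles. For strand setting, annotation release and read length, a value is not given in the sources used here. The deposited expected counts are RSEM estimates that divide shared reads and need not be whole, per the file headers. The deposited TPM values are scaled for effective length and library. Counts within 0.005 of an integer were called whole.

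Expected counts were rounded and tested by edgeR's quasi-likelihood method (version 4.0.16, under R 4.3.3) with TMM factors, filterByExpr and a design of group alone, with Benjamini-Hochberg adjustment over 12821 genes and a threshold of 0.05. CPM values are TMM-scaled. Standard errors come from the F statistic. Residual degrees of freedom were 2 and prior ones 7.52. An exact permutation of 2 against 2 libraries cannot go below p = 0.333, so none was used. Depth was 19513567 to 19615440 counts a library. Alternatives were DESeq2 1.42.0, limma 3.58.1 on log2(TPM + 1) and log2(TPM + 0.1), other filters and size factors, a replicate block and leaving out each library. The edgeR step was tested on simulated data.

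The members, lists and tests were chosen with earlier results of these data known. Genes named are all members, Setdb1, up to 5 called genes of each list by smallest p, Nfe2l2, Keap1, Ahr, called neighbours, and the 5 profiles nearest to Gstp2. Gene coordinates are from GENCODE M21, upstream sequences from RefSeq. Proteins were not analysed here.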

Additional observations from a re-analysis of the deposited data

How the results depend on the processing

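The 7 tested members kept their direction in each of 14 alternatives fitted to single genes. Gstp2 and Gstt1 kept their calls in each alternative except testing without a filter on low counts, and Gsta4 lost its call there and without shSet library 1. Testing without that filter called 0 genes higher and 0 lower, 0 members, and 0 genes in each list, and the Gsta2 and Gsta4 sum was -1.32 (adjusted p = 0.1812); the cause was not tested. For other GST genes 1 was called, against 2, with the filter of 1 CPM, with limma on log2(TPM + 0.1) and with edgeR's legacy fit, an alternative chosen after seeing the data. Limma on log2(TPM + 1) called 245 genes higher and 89 lower, and on log2(TPM + 0.1) 242 and 85, against 538 and 226, and each called 1 regulator against 2; the cause was not tested. Leaving out each library in turn gave 555 to 983 genes higher and 193 to 704 lower, 0 to 1 members lower, 1 to 4 other GST genes, 1 to 2 glutathione synthesis genes, 0 to 2 mercapturate genes, 0 to 2 regulators and a Gsta2 and Gsta4 sum of -1.53 to -1.12. In these fits the lone library of a group is assumed to vary like the other group. The labels do not tie equal replicate numbers together, and same-numbered libraries deviated with a correlation of -0.183 over 12821 genes. With a replicate block 584 genes were higher and 278 lower, with 2 members higher and 1 lower. Crossing the numbers, also chosen after seeing the data, called 1352 higher and 987 lower, with 3 members higher, Gstm2 among them, and 1 lower. Gstp3, Gsta2 and Gstm3 had too few reads for the test.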
